A study of Rattus norvegicus with 18 samples.

Results

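The genes that make, modify, and crosslink collagen were examined in rat lungs. They were 10 genes, *Lox*, *Loxl1*, *Loxl2*, *Loxl3*, *Loxl4*, *Plod1*, *Plod2*, *Plod3*, *P4ha3*, and *Serpinh1*, taken by symbol from the 22081 genes of the deposited tables. In the endoplasmic reticulum, prolyl 4-hydroxylases hydroxylate prolines of the collagen chains, lysyl hydroxylases hydroxylate lysines, and the chaperone Hsp47, encoded by *Serpinh1*, binds the folded triple helix. Outside the cell, the copper-dependent lysyl oxidases oxidize lysine and hydroxylysine side chains of collagen and elastin, and the aldehydes formed react to crosslinks. In the lung these crosslinks are known for the stiffness of the matrix in fibrosis and for the recoil of elastic fibers.

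The study had 6 groups of 3 male F344 rats, which received vehicle or MWNT-7, a multi-walled carbon nanotube (MWCNT), and were examined at Years 0.5, 1, and 2. From 9 weeks of age, MWCNT-treated rats received 0.5 mg/kg by intratracheal instillation every 4 weeks, and control rats received the saline vehicle with Tween 80 in the same way. Age and the number of instillations therefore rose together with the year. RNA came from tumor-free parts of the accessory lobe, so the samples are whole tissue from a single lobe. Total counts per rat ranged from 13297643 to 21130757, and replicate rats of every group differed by more than the sampling noise of counting. The 8 macrophage markers summed to 24247 to 30381 TPM (a level scaled for gene length and for the sum of the library) in the control rats and to 55051 to 64106 TPM in the MWCNT-treated rats. The 8 fibroblast markers summed to 662 to 1058 TPM and 411 to 563 TPM, the 7 myofibroblast and smooth muscle markers to 1200 to 1878 TPM and 662 to 1011 TPM, and the 8 heart muscle markers to 73.3 to 674 TPM and 15.8 to 203 TPM, respectively. The 4 endothelial markers summed to 1892 to 2339 TPM and 588 to 1332 TPM, and the 4 mesothelial markers to 46.3 to 163 TPM and 83.1 to 139 TPM. Lung epithelial markers were abundant in every rat, with sums of 48291 to 69708 TPM in the control rats and 62000 to 74267 TPM in the MWCNT-treated rats. Cartilage markers were near 0, at 2.52 TPM or less. Not every marker followed the sum of its list. With MWCNT, 6 of the 7 myofibroblast and smooth muscle markers fell and 1 rose at each time point (adjusted p below 0.05 in edgeR). Of the 8 fibroblast markers, 5, 6, and 4 fell and 0, 0, and 1 rose at Years 0.5, 1, and 2. Of the 7 epithelial markers tested, 4 rose at each time point and 3, 2, and 3 fell. Of the heart muscle markers tested, 6 of 7, 2 of 7, and 1 of 6 fell. The part of these shifts in the results was not tested, and in whole tissue fewer cells of a type and less RNA per cell cannot be told apart.

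The levels of the 10 genes were first set side by side on the TPM scale. *Serpinh1* was the most abundant, with 232 to 385 TPM over the 18 rats and a median of 284 TPM. *Loxl1*, an oxidase known for its part in elastic fiber renewal, followed with 97.9 to 149 TPM. *Plod3* ranged from 54.7 to 74.7 TPM, *Plod1* from 44.1 to 72.0 TPM, and *Lox* from 36.7 to 60.6 TPM. The medians of the others were 19.6 TPM for *Plod2*, 18.9 TPM for *P4ha3*, 12.3 TPM for *Loxl2*, 10.8 TPM for *Loxl4*, and 4.47 TPM for *Loxl3*. Neighbors in this order overlapped between rats, except that *Serpinh1* lay above *Loxl1*, *Loxl1* above *Plod3*, *Lox* above *Plod2*, and *Loxl4* above *Loxl3* in all rats. The spread over the rats was narrow, and the highest rat exceeded the lowest by 1.37 times for *Plod3* and by 2.48 times for *Loxl4*. Each of the 10 genes passed the filter on low counts at each time point, and *Loxl3* had 80 to 151 counts per rat.

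**Figure D1:**
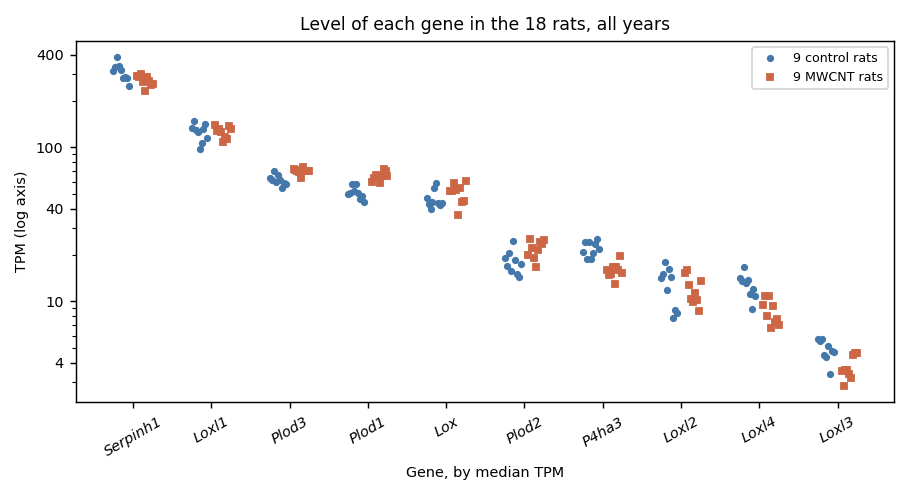
TPM (log axis) of each of the 10 genes in each rat, 9 control rats (circles) and 9 MWCNT-treated rats (squares), with the genes ordered by median. *Serpinh1* lies highest with a median of 284 TPM and *Loxl3* lowest with a median of 4.47 TPM.

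MWCNT-treated rats were then compared with control rats at each time point, with edgeR's quasi-likelihood test and a Benjamini-Hochberg FDR (the adjusted p) over all genes tested. None of the 10 genes met the criterion for differentially expressed genes (DEGs), an FDR below 0.05 with an absolute log2 fold change above 1, at any time point. At Years 0.5, 1, and 2, 7, 3, and 6 of them had an unadjusted p below 0.05 in edgeR. Over all genes it was 6842 of 14315, 7196 of 14345, and 8032 of 14361. DESeq2 and limma on TPM also gave 0 DEGs among the 10. Of all genes tested, 6.07%, 6.13%, and 8.17% were upregulated DEGs and 3.03%, 4.09%, and 8.22% were downregulated DEGs. By the FDR alone, 4 of the 10 genes rose at Year 0.5 (*Lox*, *Plod1*, *Plod2*, and *Plod3*), 3 at Year 1 (*Loxl1*, *Plod1*, and *Plod3*), and 5 at Year 2 (*Lox*, *Loxl2*, *Plod1*, *Plod2*, and *Plod3*), where 20.2%, 21.6%, and 25.2% of all genes rose. *Loxl3* and *Loxl4* fell at Year 0.5 and none fell at Years 1 and 2, where 18.6%, 19.6%, and 24% of all genes fell, in the order of the years. The median log2 fold change of the 10 genes was 0.07, 0.04, and 0.37, beside -0.02, 0.00, and -0.01 over all genes.

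**Figure D2:**
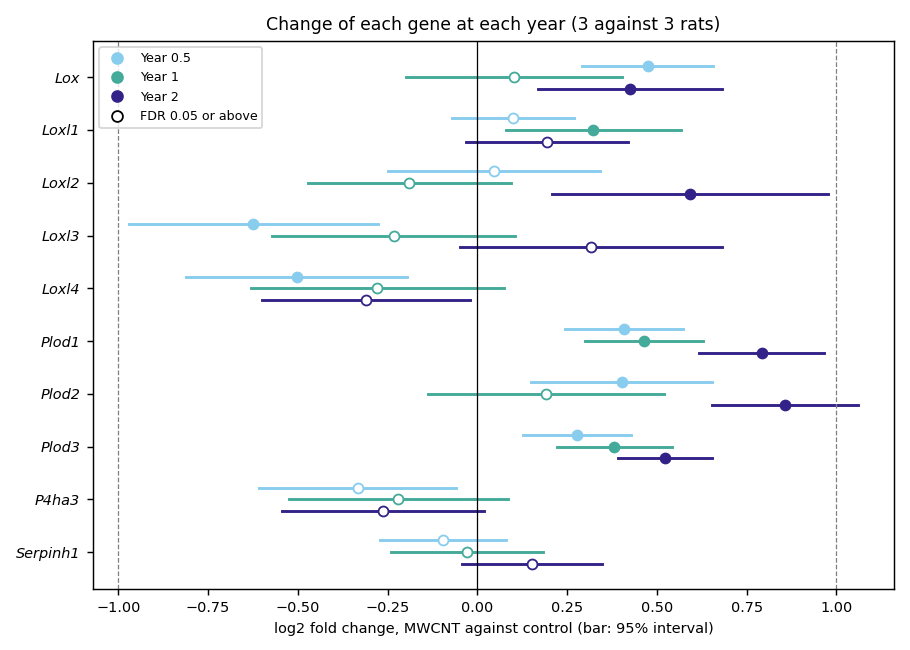
Log2 fold change of MWCNT-treated against control rats (x axis, with 95% interval) for each gene (y axis) at Years 0.5, 1, and 2, with filled points where the FDR was below 0.05 and dashed lines at the DEG limit of 1. *Plod1* and *Plod3* are filled at each time point, and no point lies beyond a dashed line, with *Plod2* at Year 2 nearest at 0.86.

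Of the 10 genes, *Plod1* and *Plod3* rose at each of the 3 time points, and *Plod2*, like *Lox*, rose at Years 0.5 and 2. *Plod1* encodes the enzyme that hydroxylates lysines in the triple helix, *Plod2* the enzyme that hydroxylates lysines in the telopeptides, and *Plod3* an enzyme that also adds sugars to hydroxylysine. Values per rat are given as TMM-adjusted CPM (library-scaled counts, with library sizes adjusted by the trimmed mean of M values), in the order of the replicate numbers. *Plod1* had 71.8, 73.4, and 81.5 CPM in the control rats of Year 0.5 and 94.4, 102, and 104 CPM in the MWCNT-treated rats. At Year 1 it had 74.8, 80.5, and 70.6 CPM against 103, 102, and 105 CPM. At Year 2 it had 68.9, 68.6, and 62.1 CPM against 124, 116, and 107 CPM. At each time point all 3 MWCNT-treated rats lay above all 3 control rats. The log2 fold change was 0.41 ± 0.07 (SE, edgeR FDR 0.00238), 0.46 ± 0.07 (FDR 0.00124), and 0.79 ± 0.08 (FDR 4.17e-05) at Years 0.5, 1, and 2, or 1.33-, 1.38-, and 1.73-fold.

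*Plod3* had 84.4, 82.4, and 93.1 CPM in the control rats of Year 0.5 and 106, 106, and 102 CPM in the MWCNT-treated rats. At Year 1 it had 80.6, 85.8, and 80.2 CPM against 104, 103, and 113 CPM, and at Year 2 76.2, 76.8, and 75.7 CPM against 113, 108, and 109 CPM. On this scale the groups did not overlap at any time point. In TPM they overlapped at Years 0.5 and 1. Control rats reached 70.3 and 66.1 TPM there, and MWCNT-treated rats began at 70.1 and 63.7 TPM. The log2 fold change was 0.28 ± 0.07 (SE, edgeR FDR 0.0107), 0.38 ± 0.07 (FDR 0.00294), and 0.52 ± 0.06 (FDR 9.3e-05).

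*Plod2* had 34.2, 30.3, and 36.6 CPM in the control rats of Year 0.5 and 39.3, 50.8, and 43.4 CPM in the MWCNT-treated rats. At Year 2 it had 27.9, 25.2, and 30.7 CPM against 52.3, 48.6, and 51.5 CPM. All 3 MWCNT-treated rats lay above the control rats at these time points, with log2 fold changes of 0.40 ± 0.11 (SE, edgeR FDR 0.0195) and 0.86 ± 0.09 (FDR 6.56e-05, 1.81-fold). At Year 1 the groups overlapped, with 28.5, 43.0, and 32.3 CPM against 38.5, 36.3, and 43.2 CPM and a log2 fold change of 0.19 (95% interval -0.14 to 0.52, FDR 0.315). Without control rat 2, which had 43.0 CPM, the log2 fold change at Year 1 was 0.37 and the FDR fell below 0.05. At Year 0.5 the call of *Plod2* was lost without control rat 1, control rat 2, or MWCNT-treated rat 2, with log2 fold changes of 0.41, 0.33, and 0.30.

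**Figure D3:**
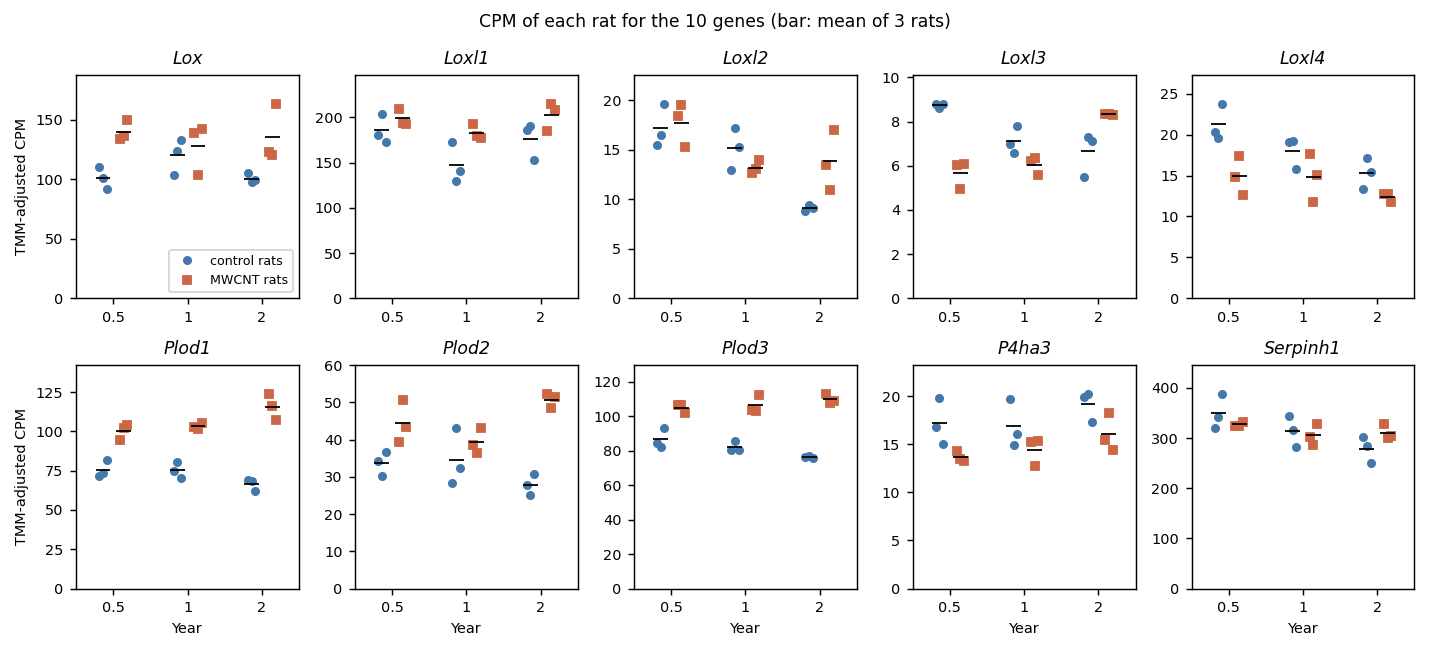
TMM-adjusted CPM (y axis, from 0) of each rat at Years 0.5, 1, and 2 (x axis) for the 10 genes, with control rats as circles, MWCNT-treated rats as squares, and the mean of 3 rats as a bar. On this scale, the MWCNT-treated rats lie above the control rats at each time point for *Plod1* and *Plod3*, and for *Loxl3* they lie below at Year 0.5 and above at Year 2.

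With TMM scaling, the lysyl hydroxylases all rose by the FDR at Years 0.5 and 2 but not at Year 1. The sequences before their transcription starts are shown, and shared control of these genes was not tested. RefSeq promoters of the assembly GRCr8 were matched for 8 of the 10 genes (*Lox* and *Loxl2* were not matched), and the 250 bases before each start are written 5′ to 3′ on the strand of the gene. Capitals mark GC boxes (GGGCGG, or CCGCCC for the other strand) and the ACGTG form of the hypoxia response element core (CACGT for the other strand). No such matches overlapped in the sequences shown. Other forms of this core, such as GCGTG, were not searched and are not marked. *Plod1* lies at chr5:163650738-163650987 on the minus strand, *Plod2* at chr8:101964068-101964317 on the plus strand, and *Plod3* at chr12:25323632-25323881 on the minus strand.
Plod1: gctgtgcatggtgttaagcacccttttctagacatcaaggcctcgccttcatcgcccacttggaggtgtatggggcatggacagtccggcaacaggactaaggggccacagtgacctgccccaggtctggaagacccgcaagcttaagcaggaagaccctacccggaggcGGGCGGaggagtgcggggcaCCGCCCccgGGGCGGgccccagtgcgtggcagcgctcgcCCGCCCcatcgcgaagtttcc
Plod2: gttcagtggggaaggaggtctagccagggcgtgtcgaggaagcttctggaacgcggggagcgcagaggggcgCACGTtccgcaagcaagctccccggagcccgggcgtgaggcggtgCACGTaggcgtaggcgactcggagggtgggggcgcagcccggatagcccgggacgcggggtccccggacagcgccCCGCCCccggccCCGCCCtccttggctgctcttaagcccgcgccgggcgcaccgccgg
Plod3: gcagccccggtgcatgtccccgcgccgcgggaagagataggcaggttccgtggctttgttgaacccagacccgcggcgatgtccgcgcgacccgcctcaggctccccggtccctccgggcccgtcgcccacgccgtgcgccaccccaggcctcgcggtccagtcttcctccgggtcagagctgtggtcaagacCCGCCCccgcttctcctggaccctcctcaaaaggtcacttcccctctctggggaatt
The window of *Plod1* held 4 GC boxes on both strands together, that of *Plod2* held 2, and that of *Plod3* held 1, and 30.5% of the 33469 promoters held at least 1. The ACGTG form of the hypoxia core was found 2 times in *Plod2* and in none of the other 7 matched genes, and 16.6% of all promoters held this form. GC boxes were also found in *Loxl4* (3), *P4ha3* (6, of which some overlap each other), and *Serpinh1* (1), and not in *Loxl1* and *Loxl3*. A SMAD box (CAGAC, or GTCTG) and a TATA box (TATAAA, or TTTATA) were also searched and are not marked. The SMAD box was found in *Plod1* (1), *Plod3* (1), *Loxl1* (2), *Loxl4* (1), and *P4ha3* (1), and not in *Plod2*, *Loxl3*, and *Serpinh1*. The TATA box was found in none of them. Of all promoters, 42.9% held the SMAD box and 12.9% the TATA box. The GC content was 65.6%, 74.8%, and 69.6% in the windows of *Plod1*, *Plod2*, and *Plod3*, and the median of all promoters was 51.2%. These matches describe the letters of the windows, and binding of a factor was not measured.

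The balance within the lysyl hydroxylases was examined as the share of each gene in the summed TPM of *Plod1*, *Plod2*, and *Plod3*, which does not depend on how libraries are scaled. At Year 2, *Plod3* made up 47.9% ± 0.591 (SD, n = 3) of the sum in the control rats and 43.0% ± 0.938 in the MWCNT-treated rats, and the ranges of 47.2 to 48.3% and 42.2 to 44% did not overlap. *Plod1* made up 39.0% ± 1.71 and 42.1% ± 1.52, also without overlap. The share of *Plod2* was 13.2% ± 1.44 and 14.9% ± 0.612, with overlap. At Year 0.5, *Plod3* made up 47.5% ± 0.156 and 45.3% ± 1.93, and these ranges overlapped.

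The lysyl oxidases did not move in a common direction. *Lox*, the founding member, which acts on collagen and elastin, had 110, 101, and 91.7 CPM in the control rats of Year 0.5 and 134, 136, and 150 CPM in the MWCNT-treated rats. At Year 2 it had 106, 97.4, and 99.2 CPM against 123, 120, and 164 CPM. The groups did not overlap at these time points, and the log2 fold change was 0.47 ± 0.08 (SE, edgeR FDR 0.00189) and 0.42 ± 0.11 (FDR 0.0128). At Year 1 it had 104, 124, and 133 CPM against 139, 104, and 143 CPM, with overlap and a log2 fold change of 0.10 (95% interval -0.20 to 0.40).

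*Loxl1* rose at Year 1 only by the FDR, with 172, 129, and 141 CPM in the control rats and 193, 179, and 178 CPM in the MWCNT-treated rats and a log2 fold change of 0.32 ± 0.11 (SE, edgeR FDR 0.0385). This call was lost without control rat 2 or 3 or without any of the 3 MWCNT-treated rats, where the log2 fold change was between 0.23 and 0.34. Its log2 fold change was 0.10 (95% interval -0.07 to 0.27) at Year 0.5 and 0.19 (-0.03 to 0.42) at Year 2, with overlapping groups. *Loxl2*, which acts on collagen IV of basement membranes, had 8.87, 9.41, and 9.09 CPM in the control rats of Year 2 and 13.5, 11, and 17.0 CPM in the MWCNT-treated rats. On this scale the groups did not overlap, and the log2 fold change was 0.59 ± 0.17 (SE, edgeR FDR 0.0177). In TPM they overlapped, with control rats up to 8.75 TPM and MWCNT-treated rats from 8.68 TPM. Without MWCNT-treated rat 3, which was the highest, the log2 fold change was 0.42 and the call was lost. At Years 0.5 and 1 its log2 fold change was 0.05 (95% interval -0.25 to 0.34) and -0.19 (-0.47 to 0.09).

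*Loxl3* and *Loxl4*, which like *Loxl2* carry scavenger receptor domains, fell at Year 0.5. *Loxl3* had 8.80, 8.59, and 8.79 CPM in the control rats of Year 0.5 and 6.02, 4.96, and 6.06 CPM in the MWCNT-treated rats. At Year 1 it had 7.0, 6.59, and 7.81 CPM against 6.21, 6.35, and 5.56 CPM. At Year 2 it had 5.5, 7.31, and 7.13 CPM against 8.33, 8.34, and 8.28 CPM. On this scale the MWCNT-treated rats lay below all control rats at Years 0.5 and 1 and above all of them at Year 2. In TPM the groups overlapped at Year 2, with 3.40, 4.78, and 4.67 TPM against 4.47, 4.65, and 4.61 TPM. The log2 fold change was -0.62 ± 0.15 (SE, edgeR FDR 0.0115), -0.23 ± 0.15 (FDR 0.239), and 0.32 ± 0.16 (FDR 0.135).

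*Loxl4* had 20.3, 19.6, and 23.8 CPM in the control rats of Year 0.5 and 14.8, 17.4, and 12.6 CPM in the MWCNT-treated rats. The groups did not overlap, and the log2 fold change was -0.50 ± 0.14 (SE, edgeR FDR 0.0175). Without control rat 3 or MWCNT-treated rat 3, the call was lost at -0.42 and -0.38. At Year 1 it had 19.1, 19.3, and 15.7 CPM against 17.6, 11.7, and 15 CPM, with overlap and a log2 fold change of -0.28 ± 0.16 (FDR 0.18). In TPM *Loxl4* did not overlap at Year 1, with 11.2 TPM or more in control rats and 10.9 TPM or less in MWCNT-treated rats. At Year 2 it had 13.3, 17.1, and 15.4 CPM against 12.7, 12.7, and 11.7 CPM, without overlap and with a log2 fold change of -0.31 ± 0.13 (FDR 0.0712).

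Shares of the lysyl oxidase family were computed in the same way. *Loxl1* made up 56.6 to 66.0% of the summed TPM of the 5 genes in the group means, and *Lox* 19.995 to 27.1%. The share of *Loxl4* was 6.88% ± 1.03 (SD, n = 3), 6.59% ± 0.82, and 5.45% ± 0.765 in the control rats of Years 0.5, 1, and 2, and 4.39% ± 0.711, 4.73% ± 0.641, and 3.71% ± 0.438 in the MWCNT-treated rats, and the ranges did not overlap at any time point. The share of *Loxl3* was 2.60% ± 0.158 against 1.54% ± 0.161 at Year 0.5 and 2.40% ± 0.209 against 1.80% ± 0.207 at Year 1, without overlap, and 2.20% ± 0.421 against 2.30% ± 0.188 at Year 2, with overlap. The sum of the family was 217 TPM ± 9.0 and 215 TPM ± 6.04 at Year 0.5, and the ranges overlapped.

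**Figure D4:**
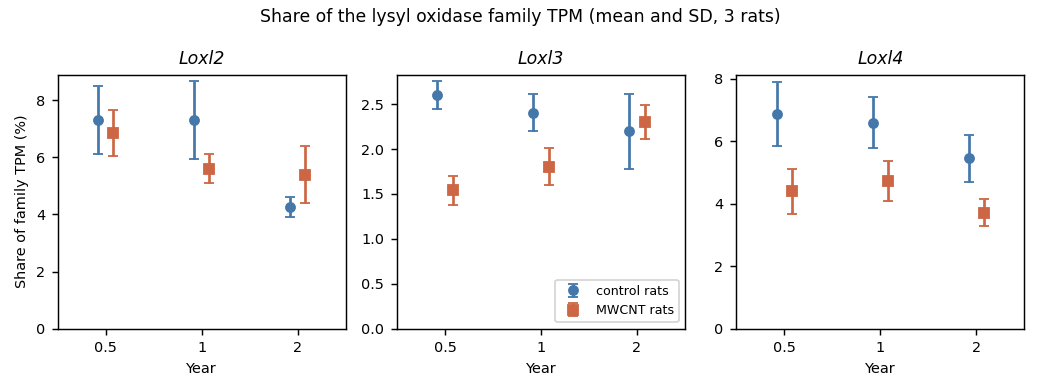
Share of *Loxl2*, *Loxl3*, and *Loxl4* in the summed TPM of the 5 lysyl oxidase genes (y axis, %) at each time point, as mean and SD of 3 control (circles) and 3 MWCNT-treated rats (squares). The share of *Loxl4* is lower in MWCNT-treated rats at each time point, and that of *Loxl3* at Years 0.5 and 1. The ranges of the *Loxl2* share overlap between the groups at each time point.

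*P4ha3*, a catalytic alpha subunit of prolyl 4-hydroxylase, and *Serpinh1* did not pass the FDR at any time point with TMM scaling and all rats. *P4ha3* had 16.7, 19.8, and 15 CPM in the control rats of Year 0.5 and 14.2, 13.4, and 13.2 CPM in the MWCNT-treated rats, without overlap, and its log2 fold change was -0.33 ± 0.12 (SE, edgeR FDR 0.0566). It was -0.22 (95% interval -0.53 to 0.08) at Year 1 and -0.26 (-0.55 to 0.02) at Year 2, with overlap in CPM. In TPM the groups did not overlap at any time point for *P4ha3*. The MWCNT-treated rats reached 16.1, 16.8, and 19.6 TPM at Years 0.5, 1, and 2, and the control rats began at 18.8, 19.0, and 21.9 TPM. *Serpinh1* had 301, 284, and 249 CPM in the control rats of Year 2 and 328, 300.0, and 304 CPM in the MWCNT-treated rats, which overlapped. Its log2 fold change was -0.10 (95% interval -0.27 to 0.08), -0.03 (-0.24 to 0.18), and 0.15 (-0.04 to 0.35) at Years 0.5, 1, and 2. At each time point the interval thus excluded a change of *Serpinh1* as large as the DEG limit.

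Whether the effect of MWCNT differed between time points was tested as an interaction in a single model of all 18 rats. *Loxl3* was the only one of the 10 genes called, between Years 2 and 0.5, with a difference in log2 fold change of 0.95 ± 0.19 (SE, 95% interval 0.55 to 1.34, edgeR FDR 0.0215), where 1.31% of all genes were called. Over the alternatives tried, the FDR ranged from 0.00415 to 0.0582, and it passed 0.05 without MWCNT-treated rat 3 of Year 0.5 (0.0549) and without MWCNT-treated rat 1 of Year 2 (0.0582). The same difference was 0.39 ± 0.10 for *Plod1* (FDR 0.0679), 0.25 ± 0.08 for *Plod3* (FDR 0.153), 0.46 ± 0.19 for *Plod2* (FDR 0.272), and 0.55 ± 0.21 for *Loxl2* (FDR 0.241). Between Years 2 and 1, 0.478% of all genes and none of the 10 were called by edgeR. Of the 10, 4 had an unadjusted p below 0.05, as did 2446 of 14843 genes in all. The differences of these 4 were 0.80 for *Loxl2*, 0.68 for *Plod2*, 0.56 for *Loxl3*, and 0.34 for *Plod1*. DESeq2 called *Plod1* in addition to *Loxl3* between Years 2 and 0.5, and *Loxl2*, *Plod1*, and *Plod2* between Years 2 and 1, where it called 460 and 512 of 18238 genes in all. Between Years 1 and 0.5, 0% of all genes were called by edgeR, with 1260 genes at an unadjusted p below 0.05 and 4 genes called by DESeq2, and none of the 10 had an unadjusted p below 0.05.

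Changes with time were examined within each treatment in the same model. In control rats, *Loxl2* fell, from 15.5, 16.5, and 19.7 CPM at Year 0.5 and 13, 17.2, and 15.3 CPM at Year 1 to the 8.87 to 9.41 CPM of Year 2. The log2 change was -0.91 ± 0.15 (SE, edgeR FDR 0.00299) between Years 2 and 0.5 and -0.73 ± 0.15 (FDR 0.0124) between Years 2 and 1. The latter call was lost without control rat 2 of Year 1, or control rat 1 or 2 of Year 2, at -0.63, -0.71, and -0.75. *Serpinh1* also fell in control rats between Years 2 and 0.5, by 0.33 on the log2 scale (FDR 0.0371), and this call was lost when any of the 6 rats was left out and with scaling by library size only. Of all genes, 6.65% and 7.93% changed between Years 2 and 0.5 and between Years 2 and 1, respectively. An unadjusted p below 0.05 in edgeR was found for 6 and 4 of the 10 genes, and for 3565 and 3846 of 14843 genes in all. Between Years 2 and 0.5 these included falls of *Loxl3* (-0.39), *Loxl4* (-0.47), *Plod1* (-0.18), and *Plod3* (-0.18), each with an FDR above 0.05. Between Years 2 and 1 they included *Loxl1* (0.26), *Plod1* (-0.18), and *Plod2* (-0.31), also with an FDR above 0.05. Between Years 1 and 0.5, 0% of all genes changed by edgeR, with 1041 genes at an unadjusted p below 0.05 and 14 genes called by DESeq2, and 2 of the 10 genes (*Loxl1* and *Loxl3*) had an unadjusted p below 0.05.

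In MWCNT-treated rats, *Loxl3* rose between Years 2 and 0.5 by 0.55 ± 0.13 on the log2 scale (SE, edgeR FDR 0.0108), where 13.5% of all genes changed. Between Years 2 and 1 it was higher by 0.46 ± 0.13 at the edge of the threshold (FDR 0.0497), where 5.94% changed, and this call was lost when any of the 6 rats was left out and under each other alternative. *Loxl2* had 18.5, 19.5, and 15.3 CPM, then 12.6, 13.1, and 14 CPM, then 13.5, 11, and 17.0 CPM in MWCNT-treated rats at Years 0.5, 1, and 2. Its log2 change between Years 2 and 0.5 was -0.36 ± 0.15 (FDR 0.114), and it was -0.54 and called without MWCNT-treated rat 3 of Year 2. Between the same years, *Plod1* and *Plod3* had log2 changes of 0.21 ± 0.07 and 0.07 ± 0.06 (SE, edgeR FDR 0.0635 and 0.483). None of the 10 genes was called between Years 1 and 0.5 by edgeR or DESeq2, where 0.101% of all genes were called by edgeR. Of the 10, 1 (*Loxl2*) had an unadjusted p below 0.05, as did 1371 of 14843 genes in all.

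The other enzymes of collagen processing were described by a list of 24 genes, of which 20 were tested at each time point. At Year 0.5, 6 of the 20 rose and 5 fell by the FDR, at Year 1, 6 rose and 3 fell, and at Year 2, 9 rose and 5 fell. Of all genes, 20.2%, 21.6%, and 25.2% rose and 18.6%, 19.6%, and 24% fell. The median log2 fold change of the 20 was 0.05, 0.07, and 0.24 at Years 0.5, 1, and 2, beside -0.02, 0.00, and -0.01 over all genes. Among the 8 that passed the FDR at each time point, the 3 with the largest changes were *Tll1*, *P4hb*, and *Adamts2*. *Tll1*, a protease that removes the C-propeptide of procollagen, fell with log2 fold changes of -0.95, -1.01, and -1.39 (edgeR FDR 0.00608, 0.00226, and 0.00196). *P4hb*, the beta subunit that prolyl 4-hydroxylases share, rose by 0.58, 0.75, and 1.00 (FDR 0.000274, 0.000122, and 1.93e-05). *Adamts2*, which removes the N-propeptide, rose by 0.39, 0.32, and 1.04 (FDR 0.00615, 0.0242, and 9.6e-06).

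The substrates were described by lists of 9 fibrillar collagen genes and 10 elastic fiber genes. Of 6 fibrillar collagens tested at Year 0.5, 2 rose, of 6 at Year 1, 1 rose, and of 7 at Year 2, 3 rose, and none fell by edgeR's test, with 2, 3, and 4 at an unadjusted p below 0.05 in either direction. The counts of both substrate lists were made with TMM scaling only. At Years 0.5, 1, and 2, 20.2%, 21.6%, and 25.2% of all genes rose and 18.6%, 19.6%, and 24% fell. An unadjusted p below 0.05 was found for 6842 of 14315, 7196 of 14345, and 8032 of 14361 genes. *Col1a1*, the alpha1 chain of type I collagen, had log2 fold changes of 0.49 (edgeR FDR 0.0439), 0.28 (FDR 0.0515), and 1.22 (FDR 1.51e-05). *Col3a1*, the chain of type III collagen, had 0.59, 0.47, and 0.86 (FDR 0.02, 0.00208, and 0.000304). Of the 9 elastic fiber genes tested, 2, 1, and 4 rose and 3, 2, and 2 fell. *Eln*, which encodes elastin, had log2 fold changes of 0.62 (FDR 0.00308), 0.24 (FDR 0.17), and 0.30 (FDR 0.0372). *Efemp2*, which tethers lysyl oxidase to the elastin precursor, rose by 0.64, 0.57, and 0.71 (FDR 0.000344, 0.000786, and 6.73e-05), and *Ltbp4*, an elastic fiber assembly protein, fell with -0.52, -0.50, and -0.33 (FDR 0.000404, 0.00738, and 0.0052).

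Levels of the enzymes were next set against their substrates as ratios of TPM within a rat, which do not depend on the scaling of libraries. *Serpinh1* to *Col1a1* was 1.81 ± 0.285 (SD, n = 3) in the control rats of Year 0.5 and 1.19 ± 0.138 under MWCNT. It was 2.14 ± 0.116 and 1.73 ± 0.0836 at Year 1, and 2.46 ± 0.358 and 1.18 ± 0.0754 at Year 2. The ranges of this ratio did not overlap at any time point, and it was lower in the MWCNT-treated rats. At Year 2, *Plod1* to *Col1a1* was 0.417 ± 0.0479 under vehicle and 0.311 ± 0.0234 under MWCNT, without overlap. At Year 1 it ran the other way, with 0.366 ± 0.0195 under vehicle and 0.416 ± 0.0354 under MWCNT, also without overlap. *Plod2* to *Col1a1* was 0.14 ± 0.0059 and 0.11 ± 0.0094, and *Lox* to *Col1a1* 0.387 ± 0.0289 and 0.226 ± 0.0534 at Year 2, both without overlap. *Serpinh1*, *Plod1*, and *Plod2* were set against *Col1a1* only, and these ratios may differ for other collagens. At Year 2, mean *Col1a1* was 112 TPM under vehicle and 223 TPM under MWCNT, and mean *Col3a1* was 290 and 452 TPM. At Year 0.5, the ratios of *Plod1*, *Plod2*, and *Lox* to *Col1a1* overlapped between the groups, as did those of *Plod2* and *Lox* at Year 1. The ratios of *Lox* to *Col3a1* and to *Eln* overlapped at each time point. At Year 2, *Lox* to *Col3a1* was 0.150 ± 0.0194 under vehicle and 0.1125 ± 0.0349 under MWCNT. *Lox* to *Eln* was 0.158 ± 0.0217 and 0.169 ± 0.0201 at that time point, respectively. *Loxl1* to *Eln* was 0.445 ± 0.0853 and 0.309 ± 0.0471 at Year 0.5, with overlap.

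The directions depended in part on how the libraries were scaled. With scaling by library size alone, the median log2 fold change of all genes was -0.12, -0.13, and -0.18 at Years 0.5, 1, and 2, and on log2(TPM + 1) with limma it was -0.15, -0.21, and -0.20. Under either of these, *Plod1* rose at each time point, by 0.30, 0.33, and 0.62 with library size alone and by 0.26, 0.22, and 0.57 on log2(TPM + 1). *Plod2* and *Plod3* lost their calls at Year 0.5 under both and kept them at Year 2, and *Plod3* at Year 1 kept its call with library size alone (0.25) and lost it on TPM (0.14). *Loxl4* fell at Years 0.5 and 2 under both, and on TPM also at Year 1. *P4ha3*, not called with TMM, fell at Year 0.5 with -0.44 under both scalings and at Year 2 with -0.43 and -0.46, and on TPM also at Year 1 with -0.43. *Loxl3* fell at Year 0.5 under both, and its log2 fold change at Year 2 was 0.14 with library size alone and 0.09 on log2(TPM + 1), against 0.32 with TMM. On TPM *Loxl3* and *Loxl2* at Year 1 and *Serpinh1* at Year 0.5 also fell. *Lox* kept its call at Year 0.5 under both, and *Lox* and *Loxl2* at Year 2 and *Loxl1* at Year 1 lost their calls under both.

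**Figure D5:**
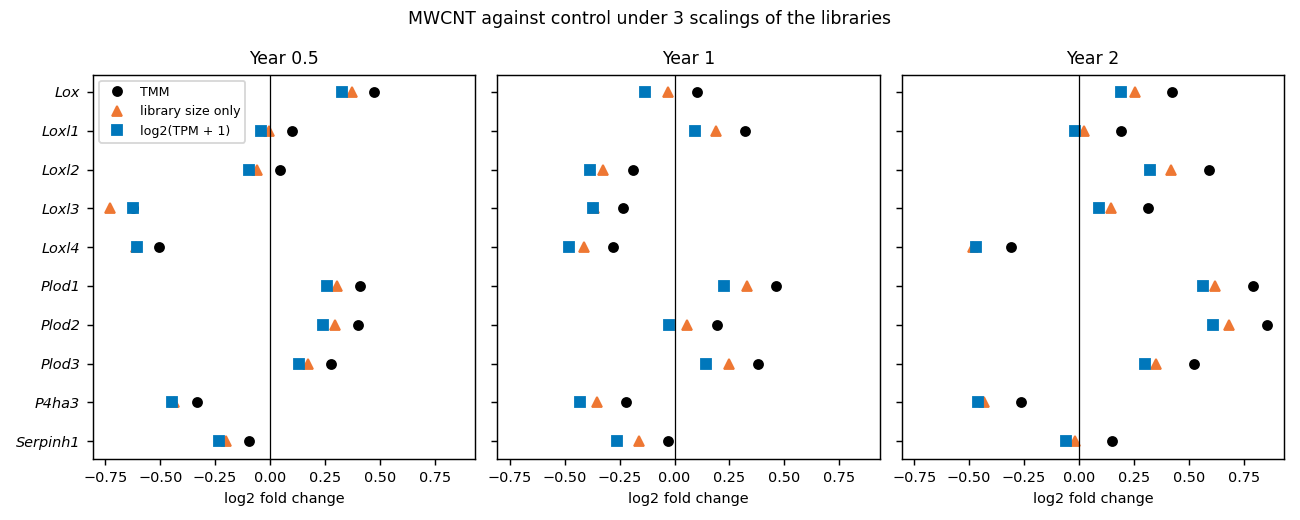
Log2 fold change of MWCNT-treated against control rats (x axis) for each gene (y axis) at each time point, with TMM scaling (circles), library size only (triangles), and limma on log2(TPM + 1) (squares). *Plod1* lies to the right of 0 and *Loxl4* and *P4ha3* to the left at each time point under each scaling, and most other points shift to the left without TMM.

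The patterns over the 18 rats were compared by Pearson's r of log2(TPM + 1), as a description over rats that share treatment and time point. Among the 10 genes, *Plod1* and *Plod3* were the most alike (r = 0.892), followed by *Plod2* and *Plod3* (0.81) and *Loxl4* and *Serpinh1* (0.792). *P4ha3* was opposed to *Plod1* (-0.745) and *Plod3* (-0.742). Among 14009 genes with a mean of at least 1 TPM, the 3 most like *Plod1* were *B4galt5* (0.94), *Cpz* (0.939), and *Ywhag* (0.934). The 3 most like *Plod3* were *Lamb3* (0.947), *Fndc3b* (0.94), and *Hhip* (0.926), and the 3 most like *Plod2* were *Frk* (0.90), *Tmem131* (0.89), and *Nol4l* (0.888). The 3 most like *Loxl3* were *Rgs5* (0.892), *Slc4a1ap* (0.854), and *Mrps35* (0.851). For *Lox* no gene exceeded 0.802 (*Ubap2*), and for *P4ha3* the highest value was 0.956 (*Stub1*).

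In the genome build of the tables, Rnor_6.0, the 10 genes lay on 7 chromosomes. *Serpinh1* (1:164301010-164308317, minus strand) and *P4ha3* (1:165295847-165330322, plus strand) lay on chromosome 1, which also held *Loxl4* (1:261835992-261853495). *Loxl1* (8:63067300-63092009) and *Plod2* (8:99977334-100059736) lay on chromosome 8. *Plod1* lay at 5:164720587-164747083, *Plod3* at 12:22716423-22726982, *Loxl3* at 4:113866804-113883477, *Loxl2* at 15:51303909-51365234, and *Lox* at 18:47500330-47577819. The values are counts over the whole gene and do not separate isoforms.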

How the data were processed

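The authors mapped the reads with CLC Genomics Workbench 22.0.2 to Rnor 6.0 (per the submitters' processing notes) and deposited counts per gene, without normalization, and TPM. The handling of strand and of reads mapping to several places is not given in the sources used here. The 36 deposited RPKM and CPM columns and the columns of the authors' own comparisons (fold changes and p-values) were not used.

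The counts were fitted with edgeR 4.0.16 (R 4.3.3) after filterByExpr (minimum count 10, total 15), TMM, and the quasi-likelihood test on the 6 rats of a time point, with Benjamini-Hochberg adjustment. Between 14315 and 14361 genes were tested per time point. Interactions and effects of time used a single model of 18 rats with 14843 genes and were called at an FDR below 0.05. A DEG needed both an FDR below 0.05 and a log2 fold change above 1 in size. The TMM-adjusted CPM per rat were computed from the counts. Scripts were tested on simulated data. Alternatives used DESeq2 1.42.0, limma 3.58.1 with pseudocounts of 1 and 0.1, other scalings and filters, and each rat left out in turn. The labels name separate rats, whose counts differed by more than sampling noise in each pair.

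The 10 genes and the gene lists were chosen with earlier results of these data known. From each list of other genes, the 3 with the largest mean absolute log2 fold change among those past the FDR at each time point were named, with *Col1a1*, *Col3a1*, and *Eln*.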

Additional observations from a re-analysis of the deposited data

Results flagged for a closer look

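The effect of MWCNT on *Loxl3* differed between time points by the test of the interaction, with a difference of 0.95 in log2 fold change between Years 2 and 0.5. In TMM-adjusted CPM all 3 MWCNT-treated rats lay below the control rats at Year 0.5 and above them at Year 2, at 80 to 151 counts per rat, whereas in TPM the groups overlapped at Year 2. With scaling by library size only the difference was 0.87 (edgeR FDR 0.0372). Groups of 3 rats are too small for a test of single outlying rats, and none was made.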

How the results depend on the processing

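The count of upregulated DEGs among the 10 genes was 0 under each alternative with that criterion and 4, 3, and 5 at Years 0.5, 1, and 2 by the FDR alone. Scaling by library size only gave 2 and 3 upregulated genes by the FDR at Years 0.5 and 2 and 2 downregulated at Year 2. Limma on TPM with a pseudocount of 1 or 0.1 gave 2, 1, and 3 upregulated and 4, 4, and 2 downregulated genes. With a rat left out, 1 to 2 genes were downregulated at Year 0.5 and 0 to 1 at Year 2. The interaction between Years 2 and 0.5 gave 2 genes by DESeq2 and 0 to 1 with a rat left out, and between Years 2 and 1, 3 genes and 0 to 1. Time in control rats gave, for Years 2 and 0.5, 1 gene with library size only, 4 by DESeq2, and 1 with any rat left out, and for Years 2 and 1, 0 to 3 with a rat left out. Time in MWCNT-treated rats gave 1 to 3 for Years 2 and 0.5, and for Years 2 and 1, 0 with RLE size factors, library size only, no filter, DESeq2, or a rat left out. Directions turned only where log2 fold changes were small. *Loxl1* at Year 0.5 was -0.0042 with library size only and -0.042 on TPM with either pseudocount, and at Year 2 -0.018 on TPM with either. *Loxl2* at Year 0.5 was -0.058 with library size only, -0.094 and -0.099 on TPM, -0.028 without control rat 1, and -0.017 without MWCNT-treated rat 2 (-0.028 to 0.156 over the rats left out). *Lox* at Year 1 was -0.032, -0.136, and -0.139, and *Plod2* at Year 1 was -0.025 and -0.026 on TPM. *Serpinh1* was 0.043 and 0.0081 at Year 1 without control rat 1 or MWCNT-treated rat 2 (-0.103 to 0.043 over the rats left out), and -0.020, -0.061, and -0.061 at Year 2. The causes were not tested. Of 450 values of log2 fold change under the alternatives, 380 kept direction and call, 28 lost the call, 22 gained one, and 20 turned. With the replicate number as a replicate block, *Loxl3* at Year 0.5 was -0.63, and no call among the 10 genes changed at any time point. Same-numbered rats did not deviate together (mean correlation 0.007, range -0.147 to 0.107 over 9 pairs), though so few pairs cannot exclude a pairing by number. At this depth the 95% interval of the log2 fold change of *Loxl3*, the gene with the fewest counts, ran from -0.57 to 0.11 at Year 1.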
